A study of Caenorhabditis elegans with 2 samples.

Results

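The 257 microRNA (miRNA) genes described here are the genes of biotype miRNA in the Ensembl annotation of Caenorhabditis elegans other than lin-4, mir-48, mir-84 and mir-241, which time larval development and are set apart as the heterochronic set. They are 257 of 261 annotated miRNA genes and of 46890 genes of every class. let-7 is itself a heterochronic gene but is not among the 4 left out, so it is counted with the 257. The question was which of these genes lie at sites of the chromatin protein HMG-11, how strongly, and whether miRNA genes in introns of host genes differ in this from independent ones. The rule for the gene list used annotation alone and no measured value, but it was chosen with earlier results of these data known.

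HMG-11 was mapped by chromatin immunoprecipitation and sequencing in whole hermaphrodites of the strain TH184, genotype unc-119(ed3) III; ddIs101, which stably expresses HMG-11 with a C-terminal GFP-FLAG tag and was precipitated through the GFP. Animals were L3 larvae taken 52 h after release from starvation at L1. The 2 biological replicates form 1 group, so no contrast between conditions exists, both libraries carry the unc-119 allele and the transgene, and no control library was analysed here. Whole animals mix all tissues, and a strong region in few cells cannot be told apart from a weak region in many. The data are lists of 30000 candidate regions from each replicate and from both sets of reads pooled, each region with a signal set by the authors on a scale that no label or header names, and a list of 4037 peaks. The peaks were the 4037 strongest pooled regions: the weakest had a pooled signal of 67.9106 and the strongest other region 67.9078. Sequencing depth is unknown, and anything weaker than the listed regions went unseen.

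miRNAs are short RNAs cut from hairpins in longer primary transcripts. In Argonaute complexes they pair with messenger RNAs, mainly through the seed, bases 2 to 8 of the mature strand, and lower translation and stability of the target; genes with the same seed form a family and can act redundantly. In C. elegans some hairpins lie in introns of coding genes and may be cut from the host transcript, others have promoters of their own, and neighbouring hairpins can share 1 transcript. HMG-11 belongs to the HMGA type of proteins, which hold A/T-rich DNA through AT-hook motifs.

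A miRNA gene was counted as listed when the summit of a pooled region lay in its window, 1000 bp upstream to 200 bp downstream of an annotated transcript start, and as having a peak when its strongest such region was a peak. For all but 7 of the 257 genes the annotation gives the hairpin and its mature strands but no primary transcript, so a window marks the hairpin and may miss a promoter farther upstream.

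The family with the most peaks was that of mir-51 to mir-56, which is required for embryonic development. Their mature strands are shown because all 6 share a seed while their genes lie at 4 separate listed regions. Letters were read by coordinates from the RefSeq genome sequence of the assembly WBcel235 (ce11) at the mature strands annotated by Ensembl, 5′ to 3′, with the seed in capitals.
mir-54, chrX:13145011-13145034, minus strand: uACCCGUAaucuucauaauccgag
mir-55, chrX:13144842-13144864, minus strand: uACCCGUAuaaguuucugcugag
mir-56, chrX:13144706-13144727, minus strand: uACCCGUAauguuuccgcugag
mir-53, chrIV:11027653-11027676, minus strand: cACCCGUAcauuuguuuccgugcu
mir-52, chrIV:14034024-14034047, plus strand: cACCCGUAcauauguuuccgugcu
mir-51, chrIV:11026074-11026096, minus strand: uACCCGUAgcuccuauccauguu

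Members of other families with peaks follow. mir-80, mir-81 and mir-82 belong with mir-58a to the abundant bantam-related miRNAs. mir-90 and mir-62 share a seed, as do mir-239a and mir-239b, and mir-64, mir-65 and mir-229. mir-42, mir-43 and mir-44 lie side by side but have 3 different seeds. let-7, which drives the passage from larva to adult, has the seed of its own large family.
mir-80, chrIII:8865285-8865307, minus strand: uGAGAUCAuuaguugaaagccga
mir-81, chrX:2431138-2431159, plus strand: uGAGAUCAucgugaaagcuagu
mir-82, chrX:2435273-2435294, minus strand: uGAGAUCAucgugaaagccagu
mir-58a, chrIV:3233314-3233335, plus strand: uGAGAUCGuucaguacggcaau
mir-90, chrIII:8874001-8874023, minus strand: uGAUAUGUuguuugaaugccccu
mir-62, chrX:12692644-12692665, plus strand: uGAUAUGUaaucuagcuuacag
mir-239a, chrX:11792460-11792482, plus strand: uUUGUACUacacauagguacugg
mir-239b, chrX:11791363-11791384, minus strand: uUUGUACUacacaaaaguacug
mir-229, chrIII:2172459-2172484, plus strand: aAUGACACugguuaucuuuuccaucg
mir-64, chrIII:2172869-2172891, plus strand: uAUGACACugaagcguuaccgaa
mir-42, chrII:11889870-11889891, plus strand: uCACCGGGuuaacaucuacaga
mir-43, chrII:11889970-11889992, plus strand: uAUCACAGuuuacuugcugucgc
mir-44, chrII:11890083-11890103, plus strand: uGACUAGAgacacauucagcu
let-7, chrX:14744234-14744255, minus strand: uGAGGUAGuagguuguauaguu
mir-58a differs from mir-80, mir-81 and mir-82 in the last base of the seed, so with identical bases 2 to 8 as the criterion it stands outside their group.

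The DNA under the summits is shown for 9 of the 98 distinct regions, chosen to cover the mir-51 family, other miRNA genes with strong or well-known members, and the most A/T-rich peak. Each sequence is the summit base with 50 bases on either side, from the plus strand of ce11, with GAGA or its complement TCTC in capitals. The first 8 are peaks and the last, at mir-51, fell below the peak threshold. Overlap of the 9 with exons of coding genes was not scored.
mir-54, mir-55 and mir-56, chrX:13145349-13145449: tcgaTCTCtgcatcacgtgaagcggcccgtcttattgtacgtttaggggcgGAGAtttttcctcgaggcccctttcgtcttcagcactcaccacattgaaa
mir-90, chrIII:8874320-8874420: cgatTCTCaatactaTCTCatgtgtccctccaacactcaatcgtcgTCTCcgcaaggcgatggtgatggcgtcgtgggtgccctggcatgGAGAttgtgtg
mir-53, chrIV:11027765-11027865: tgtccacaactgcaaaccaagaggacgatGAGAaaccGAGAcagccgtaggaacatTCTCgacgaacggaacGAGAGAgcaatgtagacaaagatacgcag
mir-52, chrIV:14033656-14033756: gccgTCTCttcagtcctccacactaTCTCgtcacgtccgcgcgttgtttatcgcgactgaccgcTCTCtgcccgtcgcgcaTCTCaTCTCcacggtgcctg
mir-80, chrIII:8865615-8865715: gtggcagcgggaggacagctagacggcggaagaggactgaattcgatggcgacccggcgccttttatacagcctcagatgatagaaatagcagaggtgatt
mir-58a, chrIV:3232876-3232976: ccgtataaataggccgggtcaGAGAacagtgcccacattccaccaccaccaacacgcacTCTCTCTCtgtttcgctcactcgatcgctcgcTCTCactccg
mir-42, mir-43 and mir-44, chrII:11889479-11889579: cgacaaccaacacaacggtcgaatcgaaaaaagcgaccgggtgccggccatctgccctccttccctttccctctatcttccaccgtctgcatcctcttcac
mir-2213, chrIII:6968511-6968611: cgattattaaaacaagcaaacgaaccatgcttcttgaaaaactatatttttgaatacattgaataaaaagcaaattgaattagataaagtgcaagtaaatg
mir-51, chrIV:11026798-11026898: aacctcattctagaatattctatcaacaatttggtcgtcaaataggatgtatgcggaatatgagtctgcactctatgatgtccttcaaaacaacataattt

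Listed regions were frequent at miRNA genes, while peaks were about as frequent as at protein-coding genes. Of the 257 miRNA genes, 116 had a listed pooled region (45.1%, 95% Wilson interval 39.2 to 51.2), compared with 31.2% of all genes and 34.4% of protein-coding genes. Of the 257, 41 had a peak (16.0%, interval 12.0 to 20.9), compared with 9.99% of all genes and 15% of protein-coding genes. In both replicates, 100 of the 257 were listed (38.9%), compared with 25% of all genes and 29.8% of protein-coding genes. The intervals cover counting error only, and they are too narrow where neighbouring genes share a region: the 116 genes lay at 98 distinct strongest regions, and the 41 with a peak at 34. No test was run on these shares, so a difference between classes is a description.

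**Figure D1:**
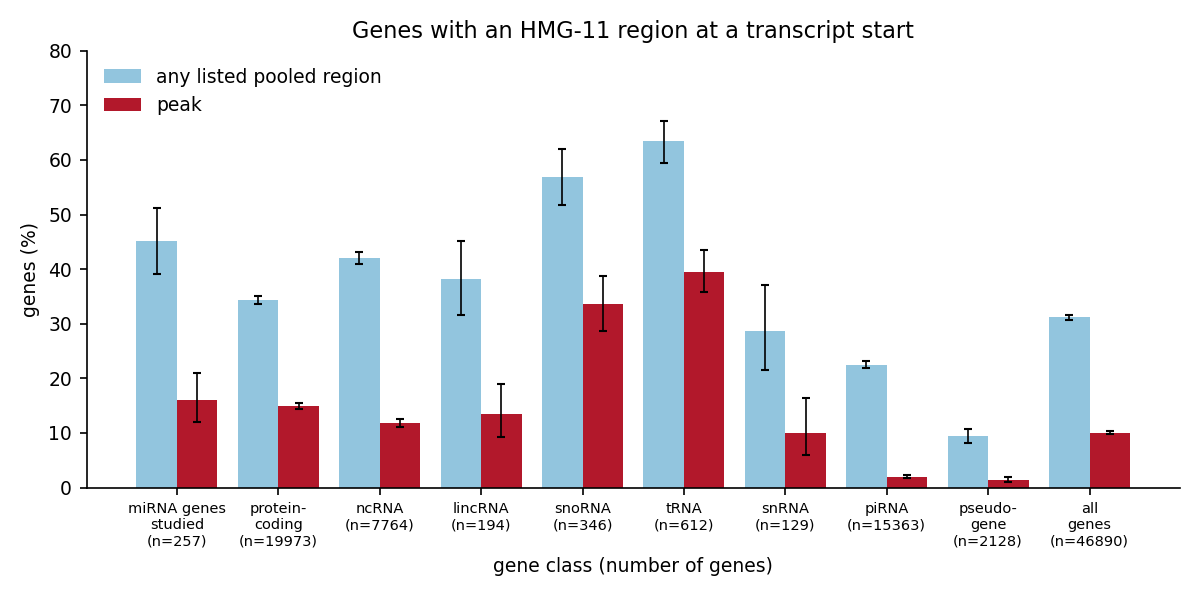
Bars give the percentage of genes with any listed pooled region (blue) and with a peak (red) in the window around a transcript start, by gene class, with the number of genes under each bar. Black lines are 95% Wilson intervals; the 257 miRNA genes stand above protein-coding genes for listed regions (45.1% and 34.4%) and beside them for peaks (16.0% and 15%).

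Among other noncoding classes, tRNA genes (63.4% listed, 39.5% with a peak) and snoRNA genes (56.9% and 33.5%) stood higher than the miRNA genes. Genes of biotype ncRNA stood near them for listed regions (42.0%, with 11.7% at a peak), and piRNA genes lower (22.5% and 2.02%). Of the miRNA genes that had a listed region, 35.3% had a peak, compared with 43.5% of listed protein-coding genes. The 4 heterochronic miRNA genes left out were all listed and 3 of them had a peak; mir-84, with a pooled signal of 40.0 at rank 9738, did not.

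The strongest region at any of the 257 genes lay upstream of the mir-54, mir-55 and mir-56 hairpins on X (13145346 to 13145469). Its pooled signal of 309.5 ranked 32 of 30000. In replicate 1 the matching region had a signal of 126.5 and ranked 45, and in replicate 2 a signal of 186 and ranked 42, so both replicates placed it near the top of their lists. Signals are not on 1 scale across lists, and ranks are the values to set side by side. The summit lay 305 bp upstream of mir-54, 475 bp upstream of mir-55 and 612 bp upstream of mir-56. The 3 hairpins lie on the strand opposite to an intron of the coding gene F09A5.3, and the noncoding gene F09A5.11 has the same summit in its window. A further hairpin annotated there on the other strand, mir-55b, had a peak of its own at rank 2788 (signal 88.1).

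The rest of the mir-51 family lay on chromosome IV. mir-53 ranked 516 in the pooled list (signal 179.9), 431 in replicate 1 and 628 in replicate 2, with its summit 124 bp upstream of the hairpin and in the window of no other gene. mir-52 ranked 902 (signal 150.2), but 2607 in replicate 1 and 434 in replicate 2; its window shares the summit with 5 small noncoding genes. mir-51, the 1 family member without a peak, ranked 4451 (signal 63.6), with 2535 in replicate 1 and 15521 in replicate 2. Thus 5 of 6 members had a peak, at 3 distinct peaks, and the replicates differed most at mir-51.

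mir-90 ranked 168 (signal 237), with 209 in replicate 1 and 119 in replicate 2. It lies in an intron of K01F9.2, 3044 bp downstream of the host's start, and no other gene has this summit in its window. The strongest region in the host's own window ranked 7347 and was not a peak. mir-8186-2 ranked 167 (signal 238), with 647 in replicate 1 and 67 in replicate 2, and its summit was also in the window of gmeb-1. mir-354 ranked 215 (signal 225), with 75 in replicate 1 and 374 in replicate 2. Its summit lay 828 bp upstream of the hairpin, in the windows of rps-20, which encodes a protein of the small ribosomal subunit, and of ekl-4, and the hairpin itself overlaps an exon of rps-20.

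let-7 ranked 602 (signal 172), with 550 in replicate 1 and 766 in replicate 2. Its gene is annotated with long primary transcripts, and the summit lay 699 bp inside that span and 142 bp upstream of the nearest annotated start of the gene. The coding gene C05G5.7 and the noncoding gene C05G5.8 share this summit. Strong peaks next to coding genes were also found at mir-5595, in the window of nurf-1, a subunit of a chromatin remodelling complex (rank 566), at mir-5549, in the windows of the translation elongation factor gene eef-1A.1 and of rfc-4 (rank 589), and at mir-4936, in the window of nduf-9 of respiratory complex I (rank 1225). At these genes the region cannot be told apart from one of the coding gene's promoter.

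mir-80, a bantam-related miRNA, ranked 1504 (signal 122), with 768 in replicate 1 and 2612 in replicate 2, and its summit, 298 bp upstream, lay in no other gene's window. mir-58a ranked 1997 (signal 107), with 1586 and 2132 in the replicates. It lies in an intron of Y67D8A.2, 10814 bp downstream of the host's start, where the host's strongest region ranked 14373. mir-81 was the weakest of the 41, at rank 4015 (signal 68.2), and mir-82 fell just below the threshold at rank 4405 (signal 64.1). The pair lies at gid-2, mir-82 in a sense intron and mir-81 on the opposite strand. mir-58b and mir-58c, with the seed of mir-80, had weaker listed regions, and mir-2209a, with the same seed, had none; these 3 are named after their values were seen.

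Clustered hairpins shared regions. mir-42, mir-43 and mir-44 shared a peak at rank 2956 (signal 84.8), 282 bp upstream of mir-42; it ranked 7152 in replicate 1 and 2147 in replicate 2. mir-229, mir-64 and mir-65, in introns of the translational regulator gcn-1, shared a peak at rank 2426 (signal 95.5), with 2772 in replicate 1 and 2267 in replicate 2. The peak lay 395 bp upstream of mir-229, whose hairpin is 20507 bp downstream of the start of gcn-1, where another peak ranked 3231. The window of mir-66, the last hairpin of that cluster, did not hold the summit of the shared peak. Its strongest region ranked 5510 and also lay in the windows of mir-229, mir-64 and mir-65. mir-239a and mir-239b, on opposite strands, shared a peak between them at rank 4009 (signal 68.3), 502 bp and 544 bp from the hairpins; it ranked 5121 in replicate 1 and 3252 in replicate 2.

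When hairpins of the same strand with gaps of at most 2000 bp were joined, the 257 genes formed 219 loci, 21 of which held 2 or more hairpins. With the window placed at the first hairpin, 12 of the 21 were listed and 4 had a peak: mir-42 to mir-44, mir-229 to mir-66, mir-53 with mir-51, and mir-54 to mir-56. Over all 219 loci, 42.9% were listed and 15.1% had a peak, close to the shares of single genes. The largest locus, mir-35 to mir-41, had a listed region but no peak. These miRNAs are needed for embryonic viability. mir-35 to mir-39 shared a region at rank 7412 (signal 46.5), which ranked 3371 in replicate 1 and 13966 in replicate 2. The strongest region in the windows of mir-40 and mir-41 ranked 21611 (signal 24.7), and its summit also lay in the windows of mir-35 to mir-39. The region at rank 7412 fell outside the windows of mir-40 and mir-41. The 8th gene with their seed, mir-42, lies elsewhere and had the peak given above.

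Over the whole set, 104 genes shared bases 2 to 8 of an annotated mature strand with another of the 257, in 45 groups; 21 of the genes stood in 2 or more groups because both strands of a hairpin are annotated. Of the 104, 58 were listed (55.8%, interval 46.2 to 64.9) and 23 had a peak (22.1%, interval 15.2 to 31.0). Of the other 153 genes, 1 of which has no annotated mature strand, 58 were listed (37.9%, interval 30.6 to 45.8) and 18 had a peak (11.8%, interval 7.57 to 17.8). Of the 45 groups, 17 held a gene with a peak and 4 held 2 or more distinct peaks. These 4 were the group of mir-51, that of mir-80, that of mir-2 and mir-43, and that of mir-62 and mir-90. Genes of 1 group often lie in 1 cluster and share a region, so the genes of a group are not independent.

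**Figure D2:**
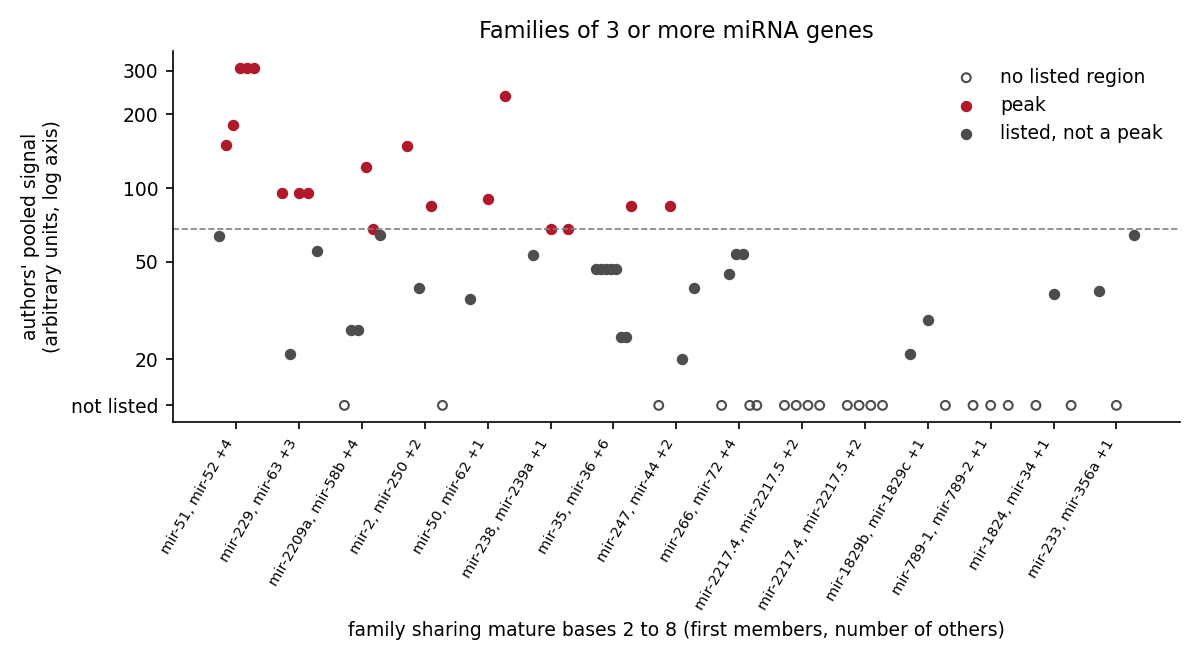
Each column is a group of 3 or more miRNA genes with the same mature bases 2 to 8, and each point is a gene at the authors' pooled signal of its strongest listed region (log axis, arbitrary units); open circles are genes with no listed region, and the dashed line is the weakest peak at 67.9. Of the 15 groups, 8 held a gene with a peak, and the mir-51 family on the left held 5.

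Genes in introns of a coding gene on the same strand were more often listed than independent genes, but their intervals overlapped. Of 66 intronic genes, 34 were listed (51.5%, interval 39.7 to 63.2) and 14 had a peak (21.2%, interval 13.1 to 32.5). Of 149 independent genes, which overlap no coding gene, 56 were listed (37.6%, interval 30.2 to 45.6) and 19 had a peak (12.8%, interval 8.32 to 19.1). Over all genes the shares were 31.2% and 9.99%, and over protein-coding genes 34.4% and 15%, near those of the independent genes. The 34 and 14 intronic genes lay at 32 and 12 distinct strongest regions, and the 56 and 19 independent genes at 49 and 16. The intervals are therefore too narrow. The median pooled signal of listed genes was 57.4 for intronic and 52.8 for independent genes, and that of genes with a peak was 95.5 and 88.5, so the ranges lay over each other. With each summit given only to its nearest transcript start, the order of the listed shares turned, with 21.2% of intronic and 26.8% of independent genes listed, while the shares with a peak were 7.58% and 7.38%. With the 2018 strongest pooled regions as peaks, the order of the peak shares turned, with 4.55% of intronic and 5.37% of independent genes at a peak. With hosts of any gene class counted, 36.6% of intronic and 37.2% of independent genes were listed.

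**Figure D3:**
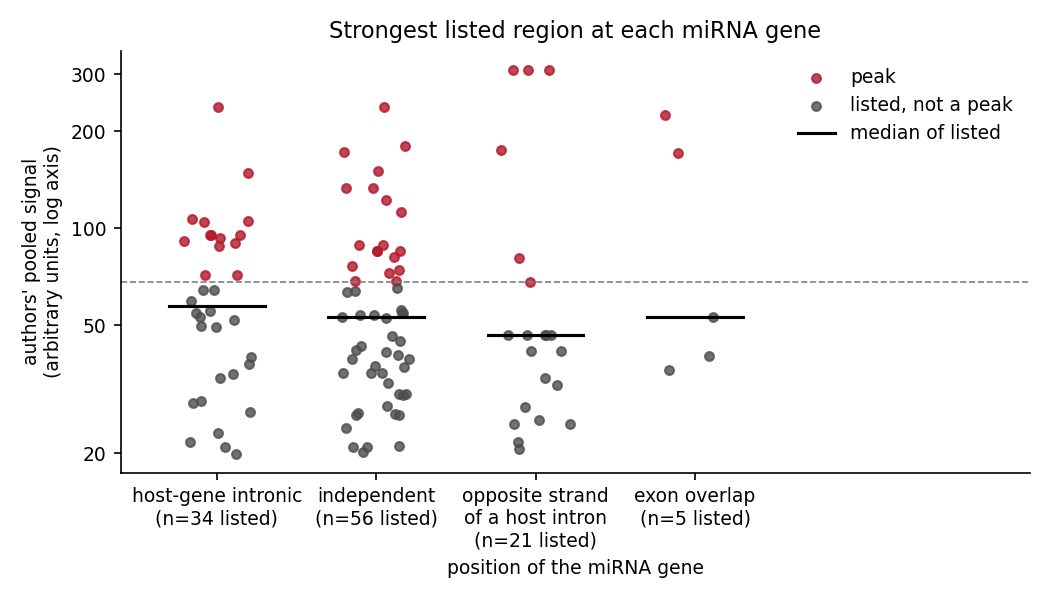
Each point is a miRNA gene with a listed region, at the authors' pooled signal of its strongest region (log axis, arbitrary units), grouped by position; red points are peaks, the dashed line marks the weakest peak at 67.9 and black bars are medians. Intronic and independent genes cover nearly the same range, with medians of 57.4 and 52.8, and 3 of the opposite-strand points at the top are mir-54, mir-55 and mir-56, which share 1 region.

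The other 42 genes lay on the strand opposite to a host intron (30 genes) or overlapped an exon (12 genes). Of the 30, 21 were listed and 6 had a peak: mir-54, mir-55, mir-56, mir-5595, mir-2218a and mir-81. The 21 lay at only 13 distinct strongest regions and the 6 at 4 distinct peaks, because clustered hairpins such as mir-35 to mir-41 share regions. Of the 12, 5 were listed and 2 had a peak, mir-354 and let-7. Beside both counts stand the shares of all genes, 31.2% listed and 9.99% with a peak.

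Of the 60 host genes of the intronic genes, 42 (70%) had a listed region in their own windows and 21 (35%) a peak. The shares of all protein-coding genes were 34.4% and 15%, and the difference was not tested. A window was drawn at every annotated start, and hosts were not matched to other coding genes by length or number of starts. At mir-253, mir-62 and mir-4929 the host's strongest peak was also the peak counted for the hairpin. Of the 66 intronic genes, 11 had a peak in a host with a peak, and 3 had a peak where the host had none. Another 14 had none where the host had 1, and 38 had none at either. The 3 were mir-90, mir-58a and mir-55b. The 11 are not separate pairs: mir-229, mir-64 and mir-65 share the host gcn-1 and their peak, and mir-2 and mir-71 share the host ppfr-1. The 14 intronic genes with a peak lay at 12 distinct peaks, and only 5 of these genes had it in the host's window as well. They were mir-253 in F44E7.5, mir-62 in ugt-50, mir-2216 in gmps-1, mir-8192 in flcn-1 and mir-4929 in E01G4.3. ugt-50 belongs to the UDP-glucuronosyltransferases, gmps-1 to guanine nucleotide synthesis, and flcn-1 is the worm folliculin. The other 9 genes, among them mir-90, mir-58a and the mir-229 cluster, had a summit outside every host window. Of the 50 intronic hairpins more than 1000 bp from a host start, 11 had a peak and 28 were listed; of the 16 within 1000 bp, 3 had a peak and 6 were listed.

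mir-2 and mir-71 lie in introns of the same host, ppfr-1, a phosphatase regulator, 17117 bp and 9962 bp downstream of its start. mir-71 promotes longevity and acts in neuronal asymmetry. mir-2 ranked 932 (signal 149), with 1878 in replicate 1 and 699 in replicate 2. mir-71 ranked 2521 (signal 93.3), with 1430 in replicate 1 and 3669 in replicate 2. The host's own peak ranked 1424, and so this gene held 3 separate peaks. mir-2214, in B0361.11, ranked 2071 (signal 105), next to a host peak at rank 1525. mir-2216 ranked 2643 (signal 91.1), with a host peak at rank 153, but its own region ranked 8660 in replicate 1 and 2000 in replicate 2.

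Independent genes with a peak, beside those above, were mir-8209 (rank 1221), mir-800 (1808, shared with R04A9.3), mir-47 (2760), mir-79 (2776), mir-5547 (3135), mir-2218b (3441), mir-2213 (3587, shared with the deadenylase gene panl-2) and mir-8196a (3675). Of these, mir-5547 and mir-8196a ranked 9031 and 9613 in replicate 1, against 2119 and 2822 in replicate 2. The hairpins of mir-46 and mir-47 share the seeds of both strands; mir-46 was listed only at rank 26492.

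The 41 genes were counted by the other genes whose windows hold the same summit. A coding gene shared it at 14, another miRNA gene at 11 and a gene of another noncoding class at 14, with overlaps among these, and at 10 genes no other gene shared it. With the nearest start alone, 19 of the 41 kept the peak. The 22 that lost it included mir-54, mir-55, mir-56, mir-52, let-7, mir-58a, mir-2 and mir-71, at each of which the nearest start is that of a gene of biotype ncRNA, while mir-90, mir-53, mir-80, mir-42 and mir-229 kept theirs. With the 2018 strongest pooled regions as peaks, 17 genes had a peak, down to mir-58a.

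Summits lay upstream of the hairpins. For the 41 genes with a peak, the summit had its median at −309 bp from the gene's 5′ end (negative is upstream, quartiles −494 and −224), and 39 of the 41 were upstream. For the 75 genes listed without a peak, the median was −328 bp (quartiles −695.5 and −182), and 69 were upstream. The window itself holds 1000 bp upstream and 200 bp downstream, which favours upstream positions. Between 100 and 600 bp upstream lay 28 of the 41 and 40 of the 75.

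**Figure D4:**
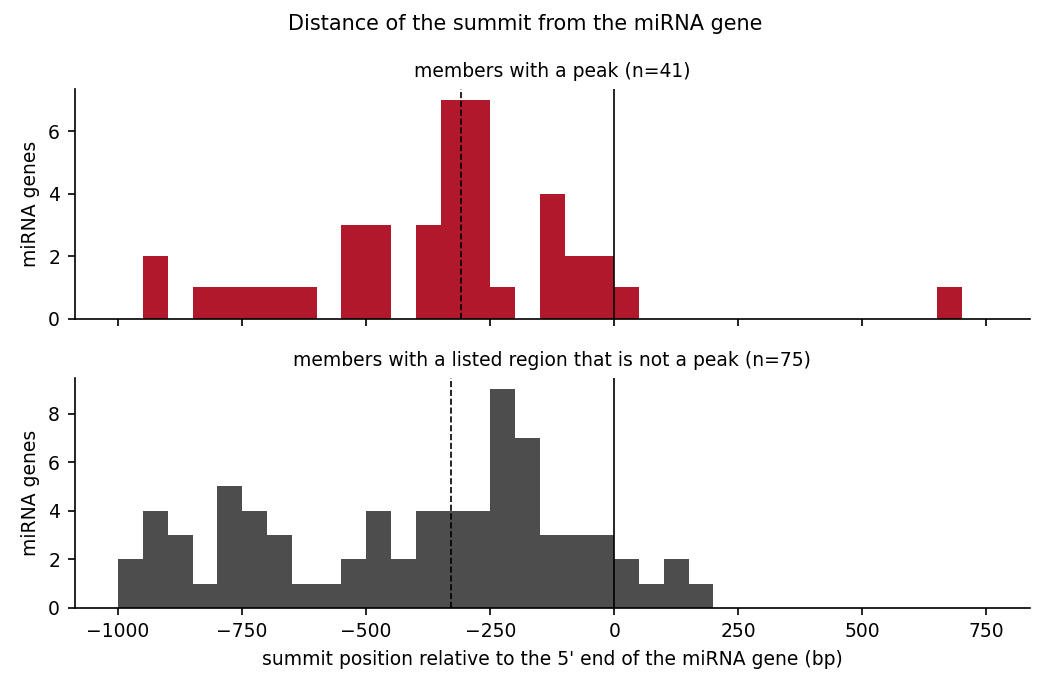
Histograms, in bins of 50 bp, of the summit position relative to the 5′ end of the miRNA gene for the 41 genes with a peak (top) and the 75 listed without one (bottom); the solid line is the 5′ end and the dashed line the median. The medians are close, at −309 and −328 bp, and the single value far downstream is let-7, whose gene span is a long primary transcript.

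Just below the peak threshold of 67.9 lay mir-4932 (rank 4309, signal 65.0), mir-87 (4380, 64.3), mir-82 (4405, 64.1), mir-271 (4417, 63.99), mir-51 (4451, 63.6), mir-124 (4892, 59.5), mir-49 (5428, 55.8), mir-66 (5510, 55.3), mir-5551 (5632, 54.7) and mir-75 (5676, 54.4). The weakest peaks, just inside it, were mir-81 at 68.2, mir-239a and mir-239b at 68.3, mir-253 at 71.6 and mir-4929 at 71.7. Both sides form a continuous series of signals. mir-124, a miRNA of sensory neurons, lies in an intron of the channel gene trpa-1, whose own window held a peak at rank 3962. mir-87 lies in kup-1, with a host peak at rank 1655. mir-49 and mir-5551 ranked 4028 and 3823 in replicate 2 but 15093 and 13660 in replicate 1.

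Of the miRNA genes that are conserved or well studied in C. elegans, a list of 86, 58 were listed (67.4%, interval 57.0 to 76.4) and 24 had a peak (27.9%, interval 19.5 to 38.2). Of the other 171 genes, 58 were listed (33.9%, interval 27.2 to 41.3) and 17 had a peak (9.94%, interval 6.30 to 15.3). Over all genes the shares were 31.2% and 9.99%. Clusters raise the counts of the list: its 58 listed genes lay at 44 distinct strongest regions and its 24 at 17 distinct peaks. For the other genes these numbers were 55 and 17. The intervals do not allow for shared regions. The list was drawn up with earlier results of these data known and was not tested.

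Well-known members of the list were spread over the range. mir-34, which acts in the response to DNA damage, ranked 11238 (signal 37.0), with 7766 in replicate 1 and 7205 in replicate 2. mir-228, which is expressed in glia, ranked 15517 (signal 30.7), and mir-1, the miRNA of muscle, 26774 (signal 20.9) with no match in replicate 1. mir-235, which holds blast cells quiescent in starved larvae, ranked 7469 (signal 46.4), with 6697 in replicate 1 and 18287 in replicate 2. mir-72, mir-73 and mir-74, with a common seed, ranked 7991, 5806 and 5806. mir-238, with the seed of mir-239a, ranked 5896, mir-86 5911 and mir-57 6040. mir-59 ranked 8553, mir-67 9837, mir-61 and mir-250 10153 at a shared region, mir-50 12268, mir-793 17977, mir-234 19217 and mir-252 20773. mir-63, mir-45 and mir-46 were at the weak end of the list, at ranks 26627, 27899 and 26492.

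No pooled region was listed for 28 of the 86: lsy-6, mir-60, mir-70, mir-77, mir-83, mir-85, mir-230, mir-231, mir-232, mir-236, mir-237, mir-240, mir-244, mir-245, mir-246, mir-247, mir-248, mir-249, mir-254, mir-259, mir-784, mir-786, mir-788, mir-790, mir-791, mir-792, mir-794 and mir-795. Among them, lsy-6 sets the asymmetry of a pair of taste neurons, mir-791 acts in neurons that sense carbon dioxide, and mir-786 acts in the intestine in the defecation rhythm. Over all 257 genes, 141 had no listed pooled region and 126 of these none in any list. The other 15 had a region in a replicate list, 3 of them in both. A gene without a listed region has a signal below the weakest pooled region, 18.9, or a region outside the window, and is not shown to lack HMG-11.

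The replicates placed the 41 genes' regions alike in part. All 41 had an overlapping region in both replicates. It was among the 4037 strongest of both replicates for 26 genes and of replicate 2 only for 11. For 3 it was so in replicate 1 only (mir-47, mir-2213 and mir-2218b) and for 1 in neither (mir-253). Counted by windows, 26 of the 257 genes had a region this strong in both replicates, beside 41 with a peak. Over all genes these numbers were 3760 and 4685, and over protein-coding genes 2413 and 2987. The 2 counts of a class need not hold the same genes, and the classes were not compared by a test. The lowest rank among the 41 was 9613 in replicate 1 and 5464 in replicate 2. Across the 34 distinct regions the Spearman correlation of the ranks in the replicates was 0.57, and across 51 listed regions that were not peaks it was 0.22; both are descriptions across regions of the same 2 libraries. Taken alone, replicate 1 had 118 listed genes and 40 among its 4037 strongest regions, and replicate 2 had 111 and 41.

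**Figure D5:**
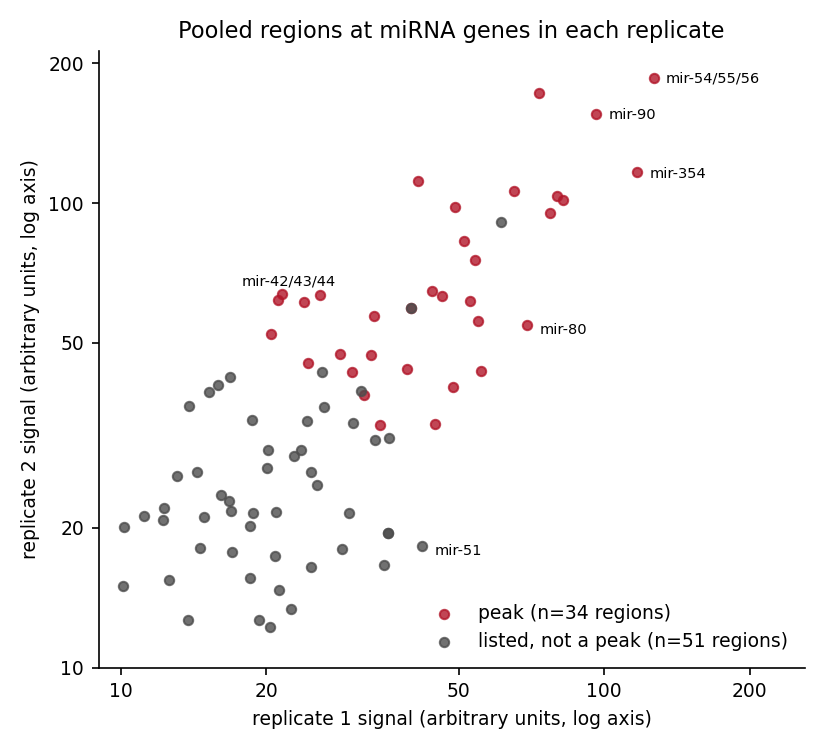
Each point is a distinct pooled region at a miRNA gene that overlaps a region in both replicates (85 regions), at the signal of the strongest overlapping region in replicate 1 and replicate 2 (log axes, arbitrary units that are not on 1 scale); red points are peaks. mir-54 to mir-56, mir-90 and mir-354 are high in both, mir-42 to mir-44 rank lower in replicate 1 and mir-51 lower in replicate 2.

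By chromosome, peaks were found at 9 of 27 genes on III, 7 of 33 on I, 9 of 48 on II, 12 of 73 on X, 3 of 50 on IV and 1 of 26 on V. Listed genes numbered 19 on III, 17 on I, 25 on II, 28 on X, 20 on IV and 7 on V. Genes sharing a region are counted apart: those with a peak lay at 7 distinct peaks on III, 7 on II and 9 on X. The share of all genes on each chromosome was not computed, so the counts do not set miRNA genes apart from other genes there. The X chromosome holds 2 large loci without any listed region at the first hairpin, that of mir-4807 to mir-4810a with 6 hairpins and that of mir-1018 to mir-4921 with 5, both named after their values were seen.

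Peaks at miRNA genes held less A+T at the median than the regions there that were not peaks. In the 101 bases around the summit, the median A+T content was 47.0% over the 34 distinct miRNA gene peaks (mean 49.1 ± 8.95, SD over regions), 58.9% over the 64 other regions listed at miRNA genes (mean 59.3 ± 9.80), 52.5% over all 4037 peaks and 63.4% over the other 25963 pooled regions. Both kinds of region at miRNA genes thus had lower medians than the same kind in the whole list. The range at miRNA gene peaks ran from 29.7% at mir-8192 to 74.3% at mir-2213. The summit of mir-54 to mir-56 had 48.5%, that of mir-90 45.5% and that of let-7 32.7%.

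Short words in the same 101 bases followed this. AATT was in 10 of the 34 miRNA gene peaks (29.4%), 54.7% of the other regions at miRNA genes, 44.2% of all peaks and 73.5% of the other pooled regions. A run of AAAAA or TTTTT was in 47.1%, 65.6%, 51.1% and 73.7% in the same order. ATTT or AAAT was in 52.9%, 85.9%, 74.7% and 91.6%. CGCG was in 41.2%, 18.8%, 35.9% and 12.4%, the reverse order. GAGA or TCTC was in 25 of the 34 (73.5%), in 62.5%, in 79.5% and in 57.1%. The printed sequences at mir-80, mir-42, mir-2213 and mir-51 hold none. The words overlap one another in part and move with base composition, and a match is a description of the letters alone. None of the 34 peaks lay mainly in repeated sequence: no region had over 50% of its 31-base words elsewhere in the genome, while 1 of the 64 others did, at mir-1832b, named after its value was seen.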

How the data were processed

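Per the labels and file headers, the authors deposited candidate regions for each replicate, the pooled reads, and an IDR (irreproducible discovery rate) thresholded list, on ce10 and ce11; which aligner and caller made them the sources used here do not say. The 4 ce11 lists were used; the 4 ce10 lists were not used here. Column 7 is the authors' deposited signal, used here as a score that ranks regions within a list. The deposited −log10 q-value was capped and not used for ranking. Summits came from the deposited offset, which is a position and carries no unit of signal. Genes came from Ensembl release 115 (WBcel235), with RefSeq symbols where Ensembl names were absent or duplicated. Replicate regions were matched by overlap, taking the strongest, so neighbouring pooled regions can match 1 replicate region. Counts, Wilson intervals (95%), and Spearman correlations used Python 3.11.15, pandas 2.3.3 and scipy 1.17.1; window assignment was checked on simulated data. No contrast was tested. Genes named were those with a peak, the 10 next below, the list of 86, and hosts or genes sharing their windows; others are marked where they stand. The members and lists were chosen with earlier results of these data known. Depth is unknown. Printed sequences are a selection, and 1 strand that belonged to it is not reported here. The alternatives were other windows, assignment rules, host rules, a stricter threshold and each replicate alone.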

Additional observations from a re-analysis of the deposited data

How the results depend on the processing

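Of 76 values recomputed under 12 alternative settings, 63 stayed within 1.5 times the reported count and 13 moved further. With each summit given to its nearest transcript start, listed genes numbered 66 (116 as reported), genes with a peak 19 (41), intronic listed genes 14 (34), intronic genes with a peak 5 (14), independent genes with a peak 11 (19), genes listed in both replicates 47 (100) and distinct regions in the windows 89 (150). With the 2018 strongest regions as peaks, 17 genes, 3 of them intronic and 8 independent, had a peak. With a window of 2000 bp upstream, independent genes with a peak numbered 31 and distinct regions 241. With hosts on either strand, 55 intronic genes were listed. Without replicate 1 or replicate 2 in turn, listed genes ran from 111 to 118, genes with a peak from 40 to 41, intronic listed genes from 35 to 36, independent listed genes from 53 to 56, intronic genes with a peak from 11 to 15, independent genes with a peak from 17 to 18, and distinct regions from 152 to 158. The genes behind those counts changed more: of the 41, 37 were among the strongest 4037 of replicate 2 alone and 29 of replicate 1 alone. The intronic share of listed genes was the higher in 9 of 11 settings and that of genes with a peak in 10 of 11. The settings reuse the same libraries, and some left these shares exactly as reported. The tally is therefore not a count of independent checks. The cause was not tested. No paired analysis was possible because there is 1 group. Shared windows, missing primary transcripts, unknown depth and the lack of a control library limit all counts.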

Other observations

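Several miRNA genes without a peak had one within reach. With the window extended to 2000 bp upstream, 20 further genes had a peak. None of the 41 could lose it, because the wider window holds the narrower one. The share of all genes with a peak in the wider window was not computed, so the gain is not particular to miRNA genes. Among the 20 were mir-34, mir-51, mir-59, mir-66, mir-72, mir-235 and mir-392, of which mir-392 and the others outside the list of 86 are named after their values were seen. mir-392 ranked 19414 in the pooled list (signal 26.5), while its window held a region of rank 1168 in replicate 1 and rank 11356 in replicate 2. With the strongest regions of replicate 1 alone, 11 genes gained a peak, among them mir-35 to mir-39, mir-51, mir-73, mir-74 and mir-4932. With those of replicate 2 alone, the 4 that gained were mir-49, mir-66, mir-87 and mir-5551.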
